A study of Mus musculus with 32 samples.

Results

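The kidney at 4 weeks of age, when the basement membrane disease of Col4a3 knockout mice is at an early stage, was compared with the wild type kidney in 16 of the 32 male mice of the study. The groups were 8 Col4a3-/- mice and 8 Col4a3+/+ littermates, both on the 129 strain, with no treatment named in the labels. The other 16 mice, 8 of each genotype at 7 weeks, entered the estimate of the spread between mice and the comparison of ages at the end. The labels do not say which part of Col4a3 was deleted. RNA of 1 kidney sample per mouse was measured on 1 Affymetrix Mouse Gene 2.0 ST array per mouse. The values were the deposited log2 signals, on which a difference of 1 is a doubling. Of the 41345 features, 23521 named a single gene, and 22180 genes remained when the feature with the highest mean was kept for each gene.

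Col4a3 encodes the alpha 3 chain of type IV collagen. Podocytes of the mature kidney assemble it with the alpha 4 and alpha 5 chains into a trimer that forms the main network of the glomerular basement membrane, and without any of the 3 chains the network is not laid down and the fetal chains alpha 1 and alpha 2 persist. Loss of the trimer causes Alport syndrome in people, and in mice it leads to leakage of protein and blood into the urine, followed by tubular damage, inflammation and fibrosis. Whole kidney RNA mixes all of these compartments, so fewer cells of a type and less RNA per cell cannot be told apart.

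The kidney's own markers were read on all 16 arrays of 4 weeks. The mean log2 signal of 24 proximal tubule genes lay between 11.49 and 12.07, against an array median of 6.20 to 6.27, and those of the adrenal cortex and skeletal muscle lists lay at 4.41 to 4.92 and 5.08 to 5.38. Correlations between mice of a genotype ran from 0.965 to 0.994, and the median SD of a gene was 0.196 in wild type and 0.208 in knockout mice. Some mice stood apart. Knockout mice 4 and 5 lay at opposite ends of the leading principal component, which held 25.2% of the variance, and had the lowest estimated array weights, 0.337 and 0.388. Small nucleolar RNAs, 12 of the 50 genes that weighed most in this component, had a mean signal of 6.81 in knockout mouse 4 and 7.88 in knockout mouse 5. Wild type mouse 8 stood out on the second component (11.6% of the variance), and wild type mouse 5 had the highest tubular injury values of the wild type. Several results are given also without one or more of these mice.

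Few genes passed adjustment in the comparison of the genotypes at 4 weeks. In a limma fit across all genes with Benjamini-Hochberg adjustment, 9 of 22180 genes (0.0406%) had an adjusted p under 0.05, of which 7 (0.0316%) were higher and 2 (0.00902%) were lower in the knockout. The higher genes were Mgp, Tgfbi, Plod2, Lcn2, Nupr1, Rasl11a and R3hdml, and the lower ones Col4a3 and Zfp747. Before adjustment 2044 genes (9.22%) had a p under 0.05, 937 of them higher (4.22%) and 1107 lower (4.99%). A difference of at least 1.5-fold in either direction was seen in 76 genes, 63 higher and 13 lower. At 7 weeks the same fit called 7167 genes (32.3%).

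The promoters of the called genes are shown as a description, and common regulation of these genes was not tested. RefSeq windows of GRCm38.p6 were held for 6 of the 9 called genes, each running from 250 bases before to 50 bases after the annotated start, and the 4 with a match to 1 of 5 searched motifs are printed 5′ to 3′ on the gene's strand, with the matches in capitals. They are Lcn2 (chr2:32387690-32387989, minus strand), Nupr1 (chr7:126625421-126625720, minus strand), Rasl11a (chr5:146844821-146845120, plus strand) and Tgfbi (chr13:56609336-56609635, plus strand).
Lcn2: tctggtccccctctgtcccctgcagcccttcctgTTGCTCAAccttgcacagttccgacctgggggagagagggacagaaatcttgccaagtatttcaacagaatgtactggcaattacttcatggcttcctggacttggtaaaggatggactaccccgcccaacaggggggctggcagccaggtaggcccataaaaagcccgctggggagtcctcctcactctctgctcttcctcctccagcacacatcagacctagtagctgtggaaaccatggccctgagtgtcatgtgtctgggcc
Nupr1: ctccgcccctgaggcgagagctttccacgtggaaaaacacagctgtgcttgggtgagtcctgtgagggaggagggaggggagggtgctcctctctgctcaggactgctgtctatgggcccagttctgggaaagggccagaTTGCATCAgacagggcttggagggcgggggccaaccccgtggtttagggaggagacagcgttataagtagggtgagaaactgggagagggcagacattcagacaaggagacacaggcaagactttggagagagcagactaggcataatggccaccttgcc
Rasl11a: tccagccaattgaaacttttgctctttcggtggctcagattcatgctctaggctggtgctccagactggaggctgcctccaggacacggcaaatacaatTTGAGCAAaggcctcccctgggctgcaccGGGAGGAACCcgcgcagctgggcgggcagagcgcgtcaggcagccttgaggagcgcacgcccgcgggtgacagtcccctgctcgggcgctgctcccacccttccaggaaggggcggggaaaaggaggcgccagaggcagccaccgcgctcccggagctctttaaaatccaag
Tgfbi: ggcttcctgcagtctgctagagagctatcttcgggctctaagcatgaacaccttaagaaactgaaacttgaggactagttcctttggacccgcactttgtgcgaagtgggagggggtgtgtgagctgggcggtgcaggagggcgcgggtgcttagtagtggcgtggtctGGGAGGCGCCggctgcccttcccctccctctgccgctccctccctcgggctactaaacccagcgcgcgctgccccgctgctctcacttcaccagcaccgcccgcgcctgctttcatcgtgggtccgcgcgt
Both strands were searched for TATAAA (the TATA box), TGANTCA (AP-1), GGGANNNNCC (NF-kB), TTGCNNAA (C/EBP) and TGATGNAA (the composite C/EBP-ATF element). The Lcn2 window held 1 C/EBP match beginning 216 bases before the start, and the Nupr1 window held 1 C/EBP-ATF match beginning 110 bases before it. Rasl11a had a C/EBP and an NF-kB match, and Tgfbi an NF-kB match 81 bases before the start. Of 32851 RefSeq promoter windows, 10.8% held the C/EBP letters, 3.97% the C/EBP-ATF letters, 20.7% the NF-kB letters, 7.81% the AP-1 letters and 13.6% the TATA letters. The windows of R3hdml and Zfp747 held none of the 5 motifs. The share of all windows with any of the 5 motifs was not counted. How many windows of the called genes held a match therefore has no background here. A match describes these letters only.

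Col4a3 (chr1:82586921-82722059, GRCm38.p6) was read first, as a check of the genotype labels. Its log2 signal lay between 8.46 and 9.33 in the wild type (median 8.91) and between 7.60 and 8.42 in the knockout (median 7.86). All 8 knockout mice lay below all 8 wild type mice, and no mouse went against its label. The difference was -0.99 ± 0.13 (SE), or 1.99-fold lower than the wild type (adjusted p = 8.75e-05, limma; exact permutation p = 0.000155 over 12870 splits, two-sided, the smallest that 8 against 8 mice allow). Where the feature's probes lie relative to the deletion was not given in the sources used here. Col4a4, the partner chain, lies head to head with Col4a3, and the annotated spans of these neighbours share 114 bases. Col4a4 signals lay between 7.83 and 8.76 in the wild type (median 8.33) and between 7.78 and 8.20 in the knockout (median 8.03). The groups overlapped, with 3 knockout mice below every wild type mouse, and the difference was -0.31 ± 0.11 (adjusted p = 0.375 over all genes; exact permutation p = 0.0182, two-sided). Col4a5, the X-linked remaining chain of the trimer, differed by 0.07 ± 0.07 (exact permutation p = 0.35). Of 17 other measured genes within 2 Mb of Col4a3, Col4a4 included, 4 had an unadjusted p under 0.05. This was a larger share than the 9.22% of all genes, and none of the 17 passed adjustment.

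Of the called genes that were higher, Mgp, Tgfbi and Plod2 act in the extracellular matrix. Mgp (chr6:136872435-136875823) encodes matrix Gla protein, a vitamin K-dependent inhibitor of calcification. Its signal lay between 10.02 and 11.02 in the wild type (median 10.19) and between 10.78 and 11.43 in the knockout (median 10.94). Apart from wild type mouse 5, which was higher than 5 knockout mice, every knockout mouse lay above every wild type mouse. Mgp rose by 0.75 ± 0.12, or 1.68-fold (adjusted p = 0.00904), and it passed the threshold with any 1 of the 16 mice left out. Tgfbi (chr13:56609586-56639359) encodes a secreted adhesion protein that binds collagens and is induced by TGF-beta. Signals ran between 7.57 and 8.55 in the wild type (median 7.90) and between 8.32 and 8.87 in the knockout (median 8.52). Wild type mouse 8 was above 4 knockout mice, and the other 7 wild type mice were below all of the knockout. Tgfbi rose by 0.65 ± 0.12 (adjusted p = 0.0215) and kept its call in 10 of the 16 fits without a mouse, the exceptions being knockout mice 1, 3 and 4 and wild type mice 2, 4 and 7.

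Plod2 (chr9:92539636-92608428) encodes lysyl hydroxylase 2, which hydroxylates collagen telopeptides and so sets the type of crosslink. Plod2 signals lay between 8.60 and 9.18 in the wild type (median 8.85) and between 9.12 and 9.57 in the knockout (median 9.21). Again wild type mouse 5 alone reached into the knockout range. Plod2 rose by 0.44 ± 0.08 (adjusted p = 0.0235), and the call held in 10 of 16 fits, failing without knockout mice 1, 3 or 5 or wild type mice 1, 2 or 7.

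Lcn2 and Nupr1 mark injured or stressed epithelium. Lcn2 (chr2:32384637-32387739) encodes lipocalin 2, also called NGAL, an iron-siderophore binding protein released by damaged tubules. Its signal lay between 6.50 and 8.33 in the wild type (median 6.82) and between 7.53 and 9.15 in the knockout (median 7.95). Knockout mice 1, 3 and 4 were the highest, at 9.11, 8.84 and 9.15, and wild type mouse 5, at 8.33, exceeded the other 5 knockout mice. The remaining wild type mice reached no higher than 6.91, below every knockout mouse. Lcn2 rose by 1.27 ± 0.25, or 2.41-fold (adjusted p = 0.0342). Nupr1 (chr7:126623246-126625470) encodes a small nuclear protein induced by endoplasmic reticulum and nutrient stress. Nupr1 lay between 6.09 and 6.85 in the wild type (median 6.37) and between 6.64 and 7.72 in the knockout (median 6.95), and wild type mouse 5 was once more the only one to enter the knockout range. Nupr1 rose by 0.69 ± 0.14 (adjusted p = 0.0357). The Lcn2 call held in 8 of 16 fits without a mouse (largest adjusted p 0.11) and failed without knockout mice 1, 3 or 4 or wild type mice 1, 2, 4, 6 or 7. The Nupr1 call held in 6 (largest adjusted p 0.107), those without knockout mice 2, 4, 7 or 8 or wild type mice 5 or 8.

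Rasl11a, R3hdml and Zfp747 belong to none of the gene lists described here. Rasl11a (chr5:146845071-146847726) encodes a small GTPase related to Ras. Its signal lay between 7.00 and 7.67 in the wild type (median 7.47) and between 7.64 and 8.31 in the knockout (median 8.12), and 7 knockout mice lay above all wild type mice, the exception being knockout mouse 2 at 7.64. Rasl11a rose by 0.63 ± 0.12 (adjusted p = 0.0322). R3hdml (chr2:163491439-163502621) encodes a predicted secreted relative of the cysteine-rich secretory proteins. R3hdml lay between 5.65 and 6.78 in the wild type (median 6.23) and between 6.59 and 6.98 in the knockout (median 6.85), and wild type mouse 1, at 6.78, was the only one inside the knockout range. R3hdml rose by 0.62 ± 0.10 (adjusted p = 0.00904) and passed with any 1 mouse left out. Zfp747 (chr7:127372537-127376050), which encodes a zinc finger protein, was the only called gene besides Col4a3 that was lower. Zfp747 lay between 6.76 and 7.11 in the wild type (median 6.93) and between 6.32 and 6.75 in the knockout (median 6.45), with no overlap between the genotypes. Zfp747 fell by 0.45 ± 0.09 (adjusted p = 0.0455). Its call held in 4 of 16 fits without a mouse (knockout mouse 4, wild type mice 3, 5 and 8; largest adjusted p 0.133) and that of Rasl11a in 6 (knockout mice 2, 7 and 8, wild type mice 5, 6 and 8; largest adjusted p 0.0973).

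**Figure D1:**
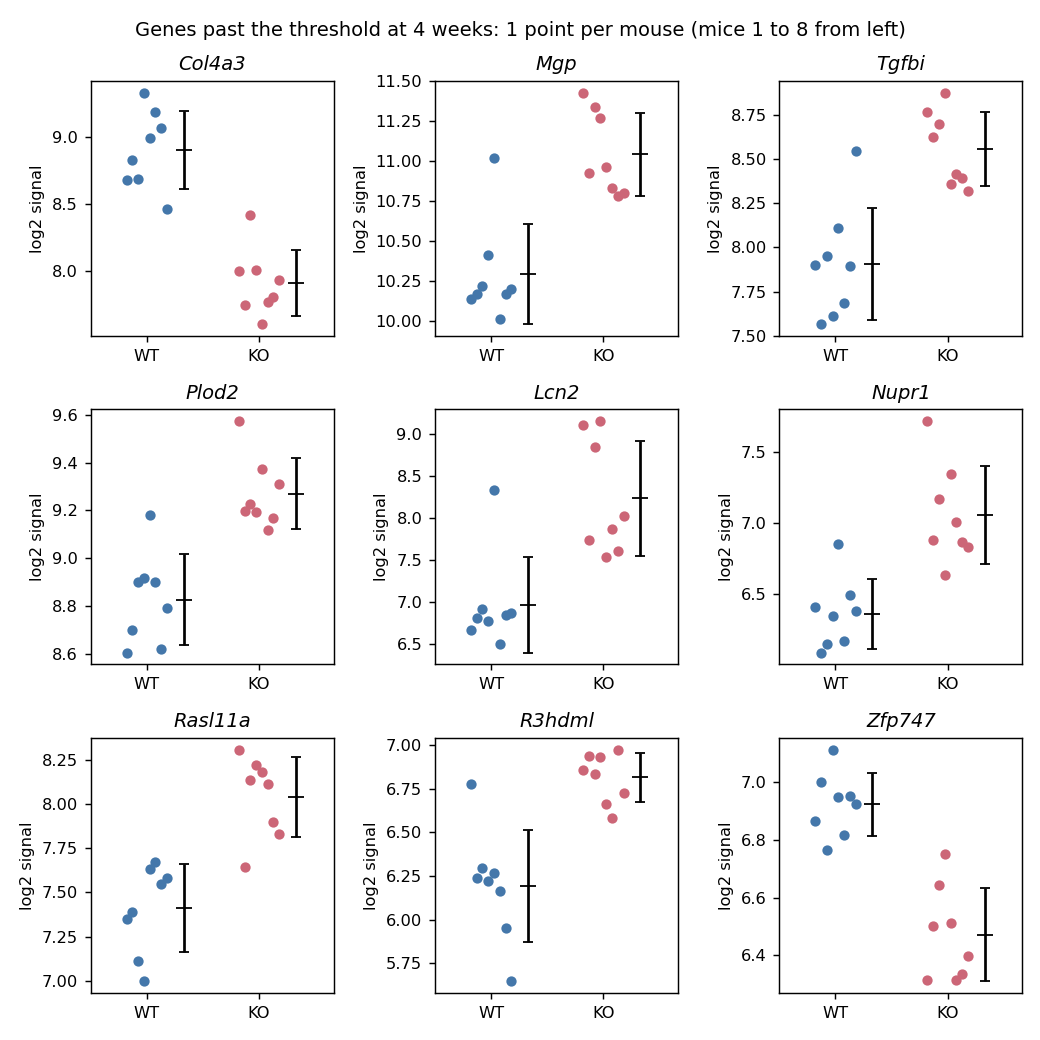
The log2 signal of the 9 genes with an adjusted p under 0.05 at 4 weeks is plotted for each of the 8 wild type (blue) and 8 knockout (red) mice, mice 1 to 8 from left to right within a group, with the mean and SD beside the points; each vertical axis covers its own gene's range. Col4a3 and Zfp747 show no overlap, and wild type mouse 5 lies in the knockout range for Mgp, Plod2, Lcn2 and Nupr1.

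How many genes were called depended on which mice were in the fit. Leaving out wild type mouse 5 gave 24 calls and wild type mouse 8 gave 21, each with all 9 among them, and leaving out knockout mouse 7 gave 18, with 8 of the 9. Counts fell to 3 without wild type mouse 2, wild type mouse 7 or knockout mouse 3, to 4 without wild type mouse 4 or knockout mouse 1, and to 5 without wild type mouse 1 or knockout mouse 5. The genes added without wild type mouse 5 included Havcr1, Timp1, Il1f6, Aoc1, Ccl2, Ccl9, Ccl17 and Fgg. Without wild type mice 5 and 8 together, which were picked for their values, 72 genes were called, and without knockout mice 4 and 5 only Col4a3 was. A fit to the 16 arrays of 4 weeks alone, with the spread estimated without the 7-week mice, also called Col4a3 and no other gene, and estimated array weights left 5 calls (Col4a3, Mgp, Tgfbi, Lcn2 and R3hdml).

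**Figure D2:**
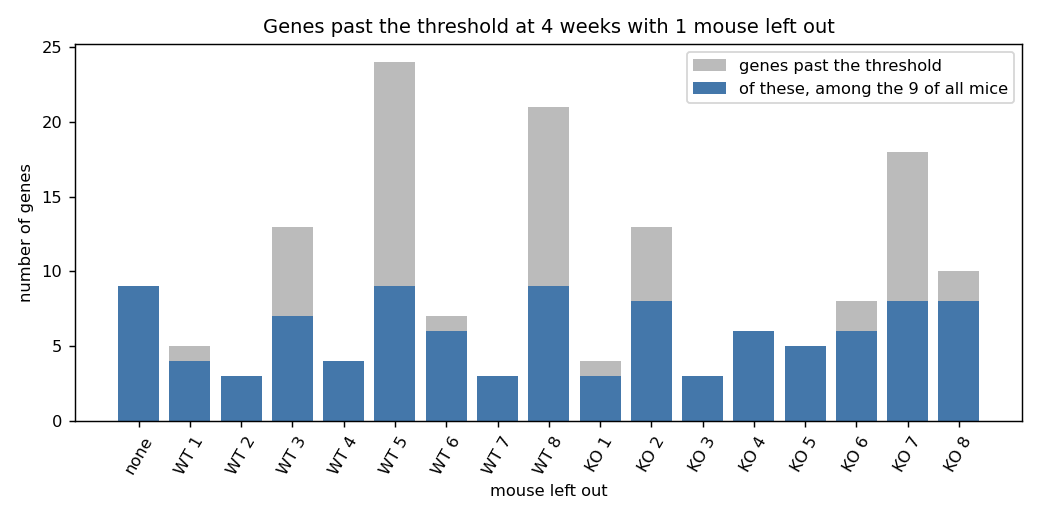
Bars give the number of genes with an adjusted p under 0.05 at 4 weeks with no mouse or 1 mouse left out (horizontal axis); the blue portion counts those among the 9 of the fit with all mice. The count runs from 3 to 24, and it is highest without wild type mouse 5 and wild type mouse 8.

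Genes whose genotypes did not overlap were counted without any model. In 11 genes (0.0496% of all genes) the 8 knockout mice all lay on the same side of the 8 wild type mice, 6 higher (0.0271%) and 5 lower (0.0225%). The higher ones were Col1a2, Col3a1, Mfap4, Fstl1, Cald1 and Cdkn1c, none of which passed adjustment. Col1a2 and Col3a1, chains of the fibrillar collagens I and III, lay at 7.26 to 7.59 (median 7.47) and 7.42 to 7.74 (median 7.66) in the wild type and at 7.67 to 8.27 (median 7.76) and 7.80 to 8.30 (median 8.03) in the knockout, with differences of 0.39 ± 0.11 and 0.39 ± 0.14. Mfap4, a microfibril-associated glycoprotein, differed by 0.41 ± 0.13, Fstl1, a secreted follistatin-like glycoprotein, by 0.24 ± 0.11, and Cald1, the actin-binding protein caldesmon of smooth muscle and myofibroblasts, by 0.29 ± 0.09. Cdkn1c, the cell cycle inhibitor p57 that mature podocytes express, lay between 6.54 and 7.10 in the wild type (median 6.90) and between 7.12 and 7.39 in the knockout (median 7.16) and differed by 0.35 ± 0.08 (adjusted p = 0.101). The 5 lower genes were Col4a3, Zfp747, Zfp418, another zinc finger gene (-0.31 ± 0.09), Rbl2, the retinoblastoma relative p130 (-0.27 ± 0.07), and Mir3083, a microRNA precursor (-0.58 ± 0.14). An exact rank-sum test called no gene after adjustment, with 1603 genes at an unadjusted p under 0.05, since its smallest possible p of 0.000155 cannot pass over 22180 genes unless many share it.

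Just under the threshold, the 15 higher genes with the smallest p had adjusted p from 0.0556 to 0.104 and differences from 0.31 to 1.73. Several are known injury genes. Havcr1, which encodes the tubular injury marker KIM-1, lay between 8.14 and 10.47 in the wild type (median 8.48) and between 8.96 and 10.84 in the knockout (median 9.68). Wild type mouse 5 exceeded 6 knockout mice, and the other 7 wild type mice lay below all 8 of the knockout. Its difference was 1.16 ± 0.24 (adjusted p = 0.0556), and it was called in the fit that dropped low-value genes. Il1f6, which encodes the cytokine interleukin 36 alpha, lay between 4.83 and 8.63 in the wild type (median 5.17) and between 6.17 and 8.85 in the knockout (median 6.88) and differed by 1.73 ± 0.39. Aoc1, the diamine oxidase, differed by 0.90 ± 0.19 and Timp1, an inhibitor of metalloproteinases, by 1.09 ± 0.25. For Lcn2, Havcr1, Il1f6 and Timp1 alike, wild type mouse 5 was the highest of its group and knockout mice 1, 3 and 4 the highest of theirs.

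The other higher genes near the threshold had varied roles. Emilin1 and Mfap2, components of elastic microfibrils, differed by 0.36 ± 0.08 and 0.46 ± 0.10, and 7 of 8 knockout mice exceeded all wild type mice for Mfap2. Kdelr3, a receptor that returns proteins to the endoplasmic reticulum, differed by 0.62 ± 0.14. Mdk, the heparin-binding growth factor midkine, differed by 0.45 ± 0.10, and Stc1, the hormone stanniocalcin 1, by 0.57 ± 0.13. Npl, which cleaves sialic acid, differed by 0.50 ± 0.11, Stbd1, a glycogen-binding protein, by 0.47 ± 0.11, and Cd209d, a lectin of the DC-SIGN family, by 0.72 ± 0.17. Srrd and Hyal6, a member of the hyaluronidase family, differed by 0.31 ± 0.07 and 0.48 ± 0.11. Cdkn1c, described above among the genes without overlap, completed the 15.

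The 15 lower genes with the smallest p had adjusted p from 0.0878 upwards and differences no larger than 0.52 in size. Transport and membrane genes were among them. Slc16a5, a monocarboxylate transporter, lay between 10.13 and 10.71 in the wild type (median 10.46) and between 9.65 and 10.34 in the knockout (median 9.96) and differed by -0.46 ± 0.10 (adjusted p = 0.0878). Atp6v1b1, the proton pump subunit of intercalated cells, differed by -0.27 ± 0.06, Sgms2, a sphingomyelin synthase, by -0.29 ± 0.06, and Slc25a2, a mitochondrial ornithine carrier, by -0.40 ± 0.09. Insig1, which helps to hold SREBP in the endoplasmic reticulum, differed by -0.36 ± 0.08 with 7 of 8 knockout mice below all wild type mice. Tet2, an enzyme that oxidises methylcytosine, differed by -0.40 ± 0.09. The remaining 9 were Dusp12, Stk32b, Rtl4, C4bp-ps1, Nxf3, Rab6b, Zfp735, Gpx5 and Rbl2, with differences from -0.52 (Rab6b) to -0.27 (Rbl2).

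Genes were then grouped by compartment and function. Of 43 lists with 879 entries, 807 were measured, and 6 list genes were called (Col4a3, Mgp, Tgfbi, Plod2, Lcn2 and Nupr1). Other list members are given by their differences and by how many had an unadjusted p under 0.05, to be read against 4.22% of all genes higher and 4.99% lower. The median difference of all genes was -0.005.

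The basement membrane list of 18 genes included Col4a3 as its only called member. Besides Col4a3 and Col4a4, 5 members had an unadjusted p under 0.05, all higher (27.8% of the list). They were the fetal chains Col4a1 (0.36 ± 0.13) and Col4a2 (0.31 ± 0.12), the laminin linker nidogen 1 (Nid1, 0.29 ± 0.11), the collagen XVIII chain (Col18a1, 0.25 ± 0.11) and the heparan sulfate proteoglycan perlecan (Hspg2, 0.34 ± 0.16). The median was 0.09, and 0.03 without knockout mouse 4. Of 17 podocyte genes, Cdkn1c and the transcription factor gene Tcf21 (0.26 ± 0.12) were on the higher side at an unadjusted p under 0.05, and the cation channel Trpc6 (-0.26 ± 0.12) and Clic5 (-0.20 ± 0.10), a chloride channel family protein of foot processes, on the lower side. Nphs1, which encodes the slit diaphragm protein nephrin, differed by 0.26 ± 0.14, and the podocyte transcription factor gene Wt1 by 0.09 ± 0.07. In the mesangial and pericyte list, 15 of 16 genes lay above 0 and 3 had an unadjusted p under 0.05, among them the smooth muscle actin gene Acta2, at 9.12 to 9.75 (median 9.37) in the wild type and 9.42 to 10.84 (median 9.95) in the knockout (0.54 ± 0.13), and Tagln (0.50 ± 0.13), which encodes transgelin. The median of the mesangial and pericyte list was 0.08, or 0.03 without knockout mouse 4. The endothelial list had 4 of 18 higher at an unadjusted p under 0.05, including Sox18 (0.33 ± 0.13) and Egfl7 (0.26 ± 0.10), with a median of 0.08, or 0.04 without wild type mouse 2.

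Along the nephron, counts follow by segment. None of the 24 proximal tubule genes had an unadjusted p under 0.05 in either direction, and their median was -0.03, or 0.02 without knockout mouse 5 and -0.10 without knockout mouse 4. The protein receptors Lrp2 and Cubn, megalin and cubilin, differed by -0.04 ± 0.14 and -0.19 ± 0.14. All 15 principal cell genes of the collecting duct lay below 0 with a median of -0.23, and 6 (40%) had an unadjusted p under 0.05. These were the basolateral water channel Aqp4, the sodium channel subunits Scnn1b (-0.24 ± 0.11) and Scnn1g (-0.30 ± 0.11), the mineralocorticoid receptor Nr3c2 (-0.18 ± 0.08), the cortisol-inactivating enzyme Hsd11b2 (-0.32 ± 0.16) and the transcription factor Elf5 (-0.36 ± 0.13). Aqp4 lay between 8.16 and 9.31 in the wild type (median 8.69) and between 6.71 and 8.74 in the knockout (median 8.18), with knockout mouse 4 the lowest and the groups overlapping (-0.71 ± 0.23). Aqp2, the vasopressin-regulated water channel, differed by -0.29 ± 0.14. Per-mouse means of the list ran from 8.13 to 8.42 in the wild type and 7.84 to 8.15 in the knockout, so that all wild type mice except mouse 8 lay above every knockout mouse, and the median was -0.21 without knockout mice 4 and 5.

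Intercalated cell genes showed 15 of 18 below 0, and 5 (27.8%) had an unadjusted p under 0.05: the proton pump subunits Atp6v1b1, Atp6v1c2 (-0.26 ± 0.09) and Atp6v0a4 (-0.17 ± 0.07) and the ammonia transporters Rhbg (-0.21 ± 0.09) and Rhcg (-0.21 ± 0.09). In the distal convoluted tubule 14 of 16 lay below 0 (median -0.18, or -0.11 without knockout mice 4 and 5), with Wnk1 (-0.20 ± 0.06), Klhl3 (-0.26 ± 0.12) and the sodium-calcium exchanger Slc8a1 (-0.31 ± 0.13) at that level, and the thiazide-sensitive cotransporter Slc12a3 differed by -0.29 ± 0.14. In the thick ascending limb 14 of 15 lay below 0 (median -0.17), with the cotransporter Slc12a1 (-0.36 ± 0.16) and the chloride channel subunit Bsnd (-0.17 ± 0.08) at that level. Much of this last list's range came from a single mouse: its mean was 8.73 in knockout mouse 4 against 9.51 or more in the other 7 knockout mice, and Tmem207 was 7.36 there against 9.88 or more in the others. Without knockout mice 4 and 5 its median was -0.09.

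The tubular injury list held the called genes Lcn2 and Nupr1. Of its 32 members 29 lay above 0, 10 had an unadjusted p under 0.05 and all of those were higher (31.2%), and the median was 0.22. The list's mean was 8.29 to 8.32 in knockout mice 1, 3 and 4, above all wild type mice, while the other 5 knockout mice, at 7.83 to 7.95, lay below wild type mouse 5 (8.10). Vim, the intermediate filament vimentin that dedifferentiated tubule cells express, differed by 0.51 ± 0.13, and Vcam1, an adhesion molecule of injured tubules and activated endothelium, by 0.93 ± 0.28. Vcam1 lay at 6.95 to 8.98 (median 7.19) in the wild type and 7.49 to 9.83 (median 8.05) in the knockout, overlapping widely. The hyaluronan receptor Cd44 (0.59 ± 0.19), the calcium-binding S100a6 (0.66 ± 0.20) and the annexins Anxa1 (0.54 ± 0.18), Anxa2 (0.30 ± 0.14) and Anxa3 (0.60 ± 0.16) made up the rest. Krt8, Krt18 and Sox9, which are often used to mark injured tubules, differed by 0.05 ± 0.12, 0.03 ± 0.19 and 0.23 ± 0.16.

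Acute-phase genes are induced by interleukin 6 family cytokines through STAT3. Of 22 measured, 5 were higher and 1 was lower at an unadjusted p under 0.05, none was called, and the median was 0.15, or 0.08 without knockout mouse 4. All 3 fibrinogen chain genes were among the 5, with differences of 0.97 ± 0.24 for Fgg, 0.41 ± 0.14 for Fga and 0.28 ± 0.11 for Fgb. Serpina3n, a secreted protease inhibitor, differed by 1.05 ± 0.33 and the oncostatin M receptor gene Osmr by 0.39 ± 0.15. The receptor gene Lifr, the lower member, differed by -0.20 ± 0.05.

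Extracellular matrix genes were read in 5 lists, with TGF-beta signalling beside them. In the matricellular and other matrix list, Mgp and Tgfbi were called, 12 of 29 members (41.4%) were higher and 1 lower at an unadjusted p under 0.05, and the median was 0.22. The list's mean per mouse ran from 6.86 to 7.05 in the wild type and 7.09 to 7.47 in the knockout, with no overlap between the genotypes. Fn1, which encodes fibronectin, lay between 7.29 and 8.28 in the wild type (median 7.91) and between 8.13 and 9.75 in the knockout (median 8.49), and 7 of 8 knockout mice exceeded all wild type mice (0.82 ± 0.20). Tnc, tenascin C, differed by 0.68 ± 0.21, Sparc by 0.31 ± 0.09, and the CCN family genes Ccn1 and Ccn2 by 0.43 ± 0.17 and 0.32 ± 0.13. Ecm1 was the lower member (-0.39 ± 0.14).

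Fibrillar and network collagens numbered 17, of which 16 lay above 0 and 8 (47.1%) had an unadjusted p under 0.05, all higher. Col1a1 lay between 6.41 and 6.94 in the wild type (median 6.84) and between 6.75 and 8.44 in the knockout (median 7.23), with 7 of 8 knockout mice above all wild type mice (0.59 ± 0.17). Col15a1 differed by 0.35 ± 0.12, Col14a1 by 0.32 ± 0.11, Col5a1 by 0.23 ± 0.08, and the beaded-filament chains Col6a1 and Col6a3 by 0.28 ± 0.13 and 0.28 ± 0.08, though Col6a1 stood at 0.02 by its more variable feature. The list's median was 0.23, 0.16 without knockout mouse 4, which had the highest list mean, and 0.14 when genes with several features were read by the most variable one. Besides Plod2, 3 of the 26 collagen folding and crosslinking genes, the lysyl oxidase relatives Loxl1 (0.28 ± 0.11), Loxl3 (0.25 ± 0.10) and Loxl4 (0.17 ± 0.07), were at that level, and the median was 0.07, or 0.04 without knockout mouse 4 and 0.11 without knockout mouse 5. Among 19 matrix proteases and inhibitors 5 were at that level, all higher: Timp1, the disintegrin metalloproteases Adam8 (0.35 ± 0.13) and Adam12 (0.30 ± 0.09), and Mmp2 (0.46 ± 0.19) and Mmp12 (0.49 ± 0.18). The median of these 19 was 0.16, or 0.10 without knockout mouse 4. Of the 11 small leucine-rich proteoglycans, lumican (Lum) differed by 0.43 ± 0.18. TGF-beta and BMP signalling genes had a median of 0.03 (0.0041 without wild type mouse 4), close to that of all genes, although the ligand gene Tgfb1 differed by 0.44 ± 0.13 and the receptor gene Tgfbr3 by -0.25 ± 0.11.

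**Figure D3:**
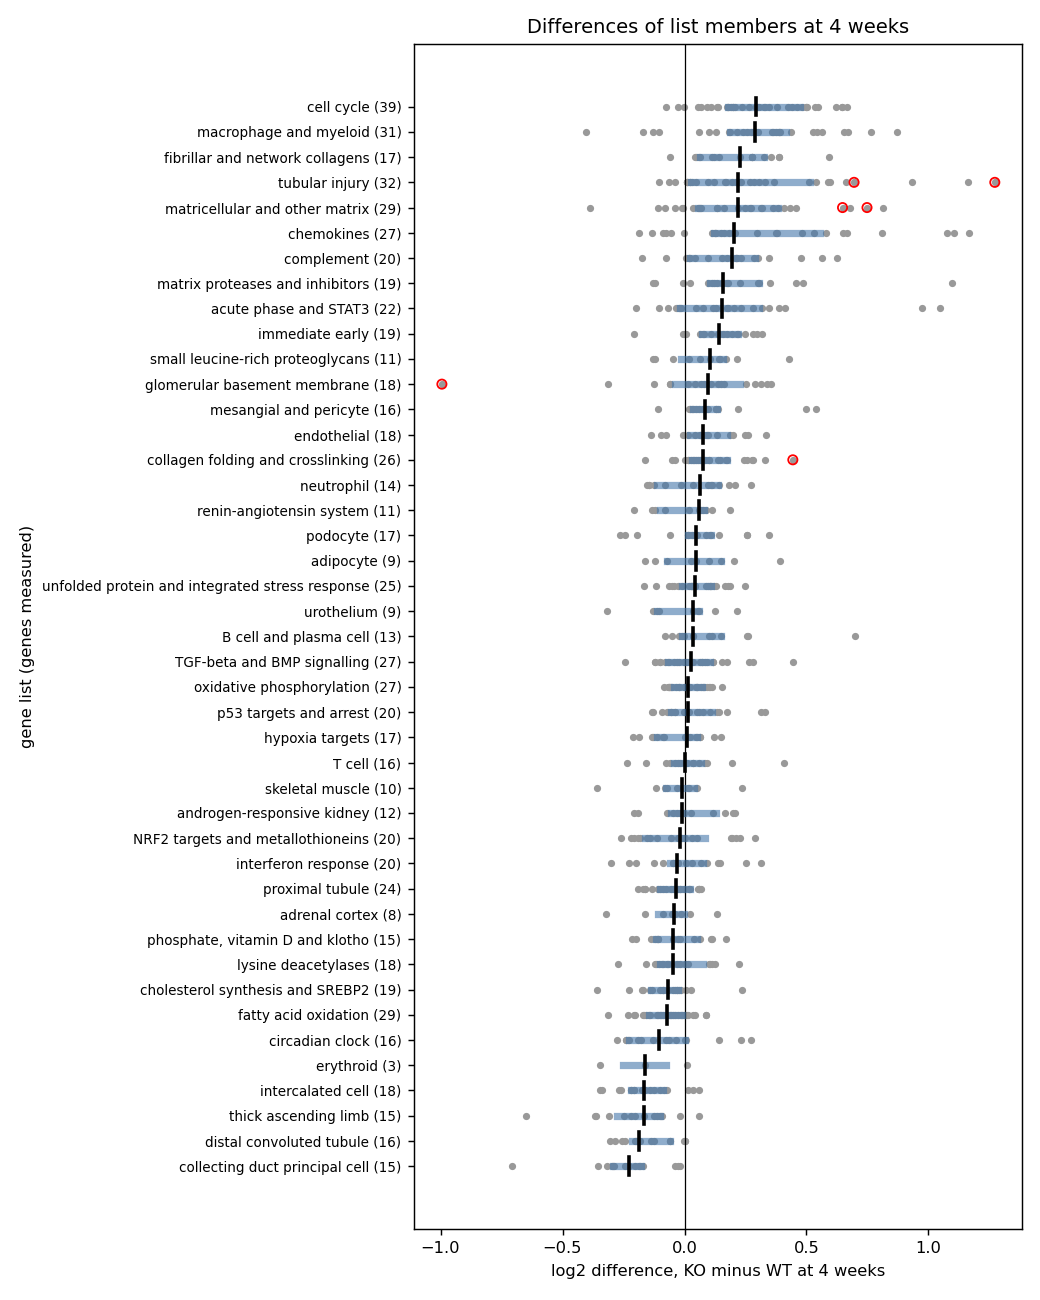
Each grey point is the log2 difference, knockout minus wild type at 4 weeks, of a gene in the list named on the vertical axis; black ticks are medians, blue bars the interquartile range, and red circles the 6 called list genes. Lists of cell cycle, macrophage, matrix and injury genes have the highest medians (0.22 to 0.295), and distal nephron lists the lowest (-0.23 to -0.17) among lists of over 3 genes.

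Among the immune cell lists, that of macrophage and myeloid genes had the highest median. Of 31 macrophage and myeloid genes 27 lay above 0, 9 were higher and 1 lower at an unadjusted p under 0.05, and the median was 0.29. They included Lyz2, lysozyme (0.87 ± 0.30), Cd14, the endotoxin co-receptor (0.76 ± 0.26), the adaptor gene Tyrobp (0.65 ± 0.27), the monocyte chemokine receptor Ccr2 (0.53 ± 0.25) and Trem2 (0.39 ± 0.17), and Chil3 was the lower member (-0.41 ± 0.16). The list mean per mouse was 6.39 in wild type mouse 5 and 6.73 in wild type mouse 8, and the other 6 wild type mice, at 5.92 or less, lay below all 8 knockout mice (6.02 to 6.75). The median was 0.40 without wild type mouse 8. Chemokines behaved alike, with 7 of 27 higher at that level. Ccl2, which recruits monocytes, lay between 5.84 and 9.53 in the wild type (median 6.41) and between 6.74 and 9.45 in the knockout (median 7.29), and wild type mouse 5 was the highest of all 16 (1.17 ± 0.41). Ccl5, Ccl9 and Ccl17 differed by 1.08 ± 0.41, 0.81 ± 0.24 and 1.10 ± 0.28, and the membrane-bound Cx3cl1 by 0.30 ± 0.09 with 7 of 8 knockout mice above all wild type mice. Complement genes had 4 of 20 higher, among them C7 (0.62 ± 0.17) and Cfi (0.48 ± 0.14). No knockout mouse lay above all wild type mice in the mean of this list, which was highest of all 16 in wild type mouse 8 (7.33).

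Lymphocyte and interferon genes gave no such count. Only 1 of 16 T cell genes, Il7r (0.41 ± 0.20), 1 of 14 neutrophil genes, Mmp8 (0.27 ± 0.11), and none of 13 B cell or 20 interferon-induced genes had an unadjusted p under 0.05. The interferon list had its highest mean, 7.60, in wild type mouse 8, with the other 15 mice at or below 6.64, and its median of -0.03 became 0.15 without that mouse. The T cell list also peaked in wild type mouse 8, at 6.09 against 5.39 or less in the other wild type mice.

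Cell cycle genes formed the list with the highest median, 0.295. Of 39 genes 36 lay above 0 and 18 (46.2%) had an unadjusted p under 0.05, all higher, though none was called. Birc5, survivin, differed by 0.66 ± 0.18, the mitotic kinesin Kif11 by 0.64 ± 0.20, Cdk1 by 0.65 ± 0.23, Top2a by 0.50 ± 0.20, and the proliferation marker Mki67 by 0.50 ± 0.24. Pcna, the DNA polymerase clamp, lay between 9.51 and 10.08 in the wild type (median 9.95) and between 9.74 and 10.75 in the knockout (median 10.14), with 5 knockout mice above all wild type mice (0.29 ± 0.11). List means varied widely between mice within each genotype, from 6.55 to 7.51 in the wild type and 6.98 to 7.79 in the knockout, with wild type mouse 6 above 6 of the knockout mice. The lowest median with a mouse left out was 0.22, without knockout mouse 8.

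Stress and metabolic lists showed smaller shifts. Immediate early genes, transcription factors that respond within minutes to stimuli, had 4 of 19 higher at an unadjusted p under 0.05, including Atf3 (0.28 ± 0.14) and Klf6 (0.32 ± 0.13), and their mean was highest in knockout mouse 4 (7.65). Their median was 0.14, or 0.09 without that mouse. No gene of the 25 of the unfolded protein and integrated stress response was at an unadjusted p under 0.05. Among 20 p53 targets Gadd45b (0.33 ± 0.11) was, and Cdkn1a, the arrest gene p21, differed by 0.31 ± 0.23. Of the 20 NRF2 targets and metallothioneins 8 lay above 0 and 12 below, and 4 were at that level, Mt2 (0.29 ± 0.11) and Gstp1 (0.21 ± 0.09) higher and Ephx1 (-0.26 ± 0.09) and Keap1 (-0.19 ± 0.07) lower. In the fatty acid oxidation list 22 of 29 genes lay below 0, Ppargc1a (-0.17 ± 0.07) and Hadha (-0.16 ± 0.07) at an unadjusted p under 0.05, while the 27 oxidative phosphorylation genes had a median of 0.02, or 0.07 without knockout mouse 4. Fdft1 (-0.23 ± 0.10) lay with Insig1 on the lower side of 19 cholesterol synthesis genes and Fdps (0.24 ± 0.11) on the higher. Neither list median exceeded 0.10 in size.

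Lysine deacetylases, the enzyme class that the series title names, were not called at 4 weeks. Of 18 measured, which span the zinc-dependent histone deacetylases and the NAD-dependent sirtuins, 11 lay below 0 and the median was -0.05, or 0.0035 without knockout mouse 5. Hdac10 lay between 6.43 and 6.72 in the wild type (median 6.60) and between 5.90 and 6.70 in the knockout (median 6.32), with 5 knockout mice below all wild type mice (-0.27 ± 0.09, adjusted p = 0.354). Sirt1 differed by -0.11 ± 0.05 (adjusted p = 0.511), and no other member had an unadjusted p under 0.05. The renin-angiotensin list had none of 11 genes at that level, and Agtr1a, the main angiotensin receptor gene, differed by 0.02 ± 0.07. Klotho (Kl), the kidney co-receptor for FGF23, differed by -0.11 ± 0.14, and of 15 phosphate and vitamin D genes the calcium-sensing receptor Casr (-0.22 ± 0.09) alone was at that level. The clock list had a median of -0.10, or -0.06 without knockout mouse 5 and -0.19 without wild type mice 5 and 8, with Per3 at -0.28 ± 0.11, and the hypoxia and androgen-responsive lists had no gene at that level.

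Markers of tissue attached to the kidney were read for each mouse. The urothelium list had its highest mean in wild type mouse 7 (6.50 against 5.86 or less in the other wild type mice), and the adipocyte list in knockout mouse 3 (6.62 against 6.19 or less in the other knockout mice). Of 9 adipocyte genes, Fabp4 differed by 0.39 ± 0.15, and of 10 muscle genes Myh4 and Mylpf by -0.36 ± 0.14 and 0.24 ± 0.09. Medians of these lists lay between -0.04 and 0.05, and the part of such tissue in the differences above was not tested.

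**Figure D4:**
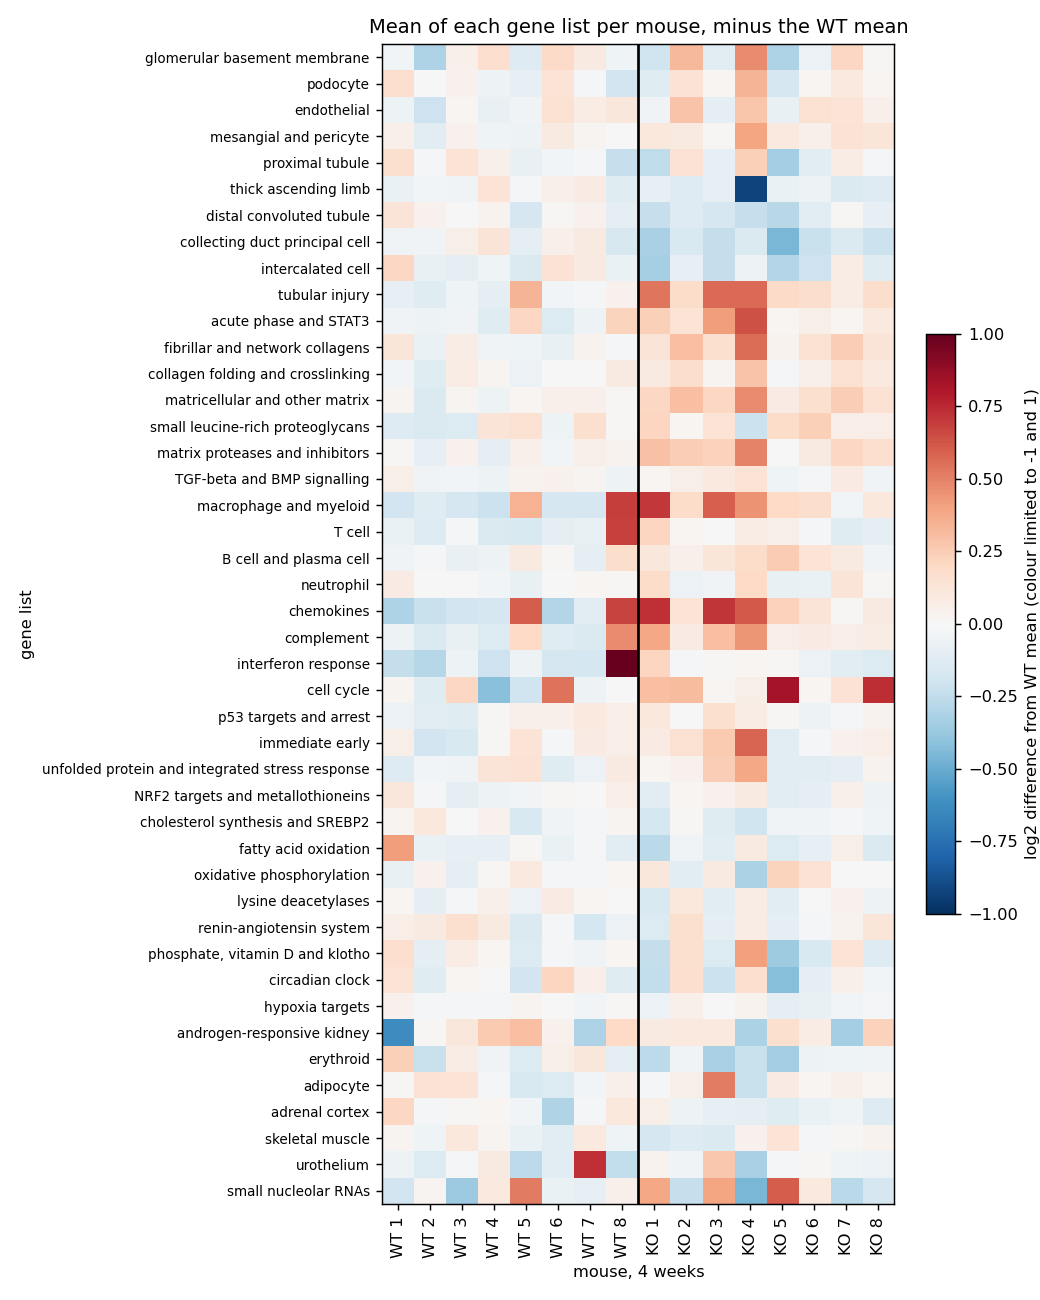
Colours give the mean log2 signal of each gene list (rows) in each of the 16 mice of 4 weeks (columns), minus the mean of the 8 wild type mice, with colours limited to -1 and 1. Matricellular genes are above the wild type mean in all 8 knockout mice, wild type mouse 8 is dark in the interferon and T cell rows, and knockout mouse 4 is lowest in the thick ascending limb row.

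The same genotype contrast was read in separate mice at 7 weeks. Of the 9 called genes, 8 passed at 7 weeks in the same direction, the targeted Col4a3 among them and the exception being Zfp747. Of all genes 32.3% passed at 7 weeks, 15.6% higher and 16.7% lower. The change of the genotype difference from 4 to 7 weeks was tested as an interaction in the same fit, in which 3779 genes (17%) passed, and 6 of the 9 were among them. These genes were picked on their 4-week values, which also enter this test. Lcn2 went from 1.27 ± 0.25 to 3.81 ± 0.25 (change 2.54 ± 0.35, adjusted p = 4.25e-06), and Tgfbi from 0.65 ± 0.12 to 1.99 ± 0.12 (change 1.35 ± 0.17, adjusted p = 9.64e-07). Mgp reached 1.91 ± 0.12 (adjusted p of the change 1.78e-05) and Nupr1 1.60 ± 0.14 (0.000965). Col4a3 itself was lower by a larger amount at 7 weeks, -1.65 ± 0.13 against -0.99 ± 0.13 (adjusted p of the change 0.00907). Zfp747 was the converse, at -0.03 ± 0.09 by 7 weeks (adjusted p of the change 0.0179). For Rasl11a, R3hdml and Plod2 the change was 0.13 ± 0.17, -0.22 ± 0.15 and 0.27 ± 0.12, and did not pass (adjusted p = 0.669, 0.334 and 0.112).

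Of the 15 higher genes near the threshold, 11 passed at 7 weeks in the same direction, against 15.6% of all genes on that side. Between ages 8 of them changed, against the 17% of all genes. Genes near the threshold were likewise picked on their 4-week values. In 6 of the 8 that changed, the 7-week difference was the larger: Timp1 (4.05 ± 0.25), Il1f6 (4.16 ± 0.39), Havcr1 (2.91 ± 0.24), Aoc1 (2.78 ± 0.19), Kdelr3 (2.04 ± 0.14) and Mfap2 (1.22 ± 0.10). Srrd and Hyal6 were the opposite, at -0.03 ± 0.07 and -0.05 ± 0.11. Cdkn1c and Mdk stood at 0.06 ± 0.08 and 0.10 ± 0.10 at 7 weeks, and their changes did not pass (adjusted p = 0.0694 and 0.0967). Of the 15 lower genes 12 passed at 7 weeks in the same direction, against 16.7% of all genes on the lower side. The difference changed between ages in 2 of these 15 lower genes, against the 17% of all genes. Insig1 was lower by more at 7 weeks (-0.81 ± 0.08, adjusted p of the change 0.00749), and Zfp735 was not lower then (0.16 ± 0.11, 0.00772). List medians at 7 weeks, which were not tested, were 1.50 for tubular injury, 2.22 for macrophage, 1.07 for matricellular and 1.00 for cell cycle genes. Those of principal cells and proximal tubule were 0.06 and -0.47, against -0.23 and -0.03 at 4 weeks.

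**Figure D5:**
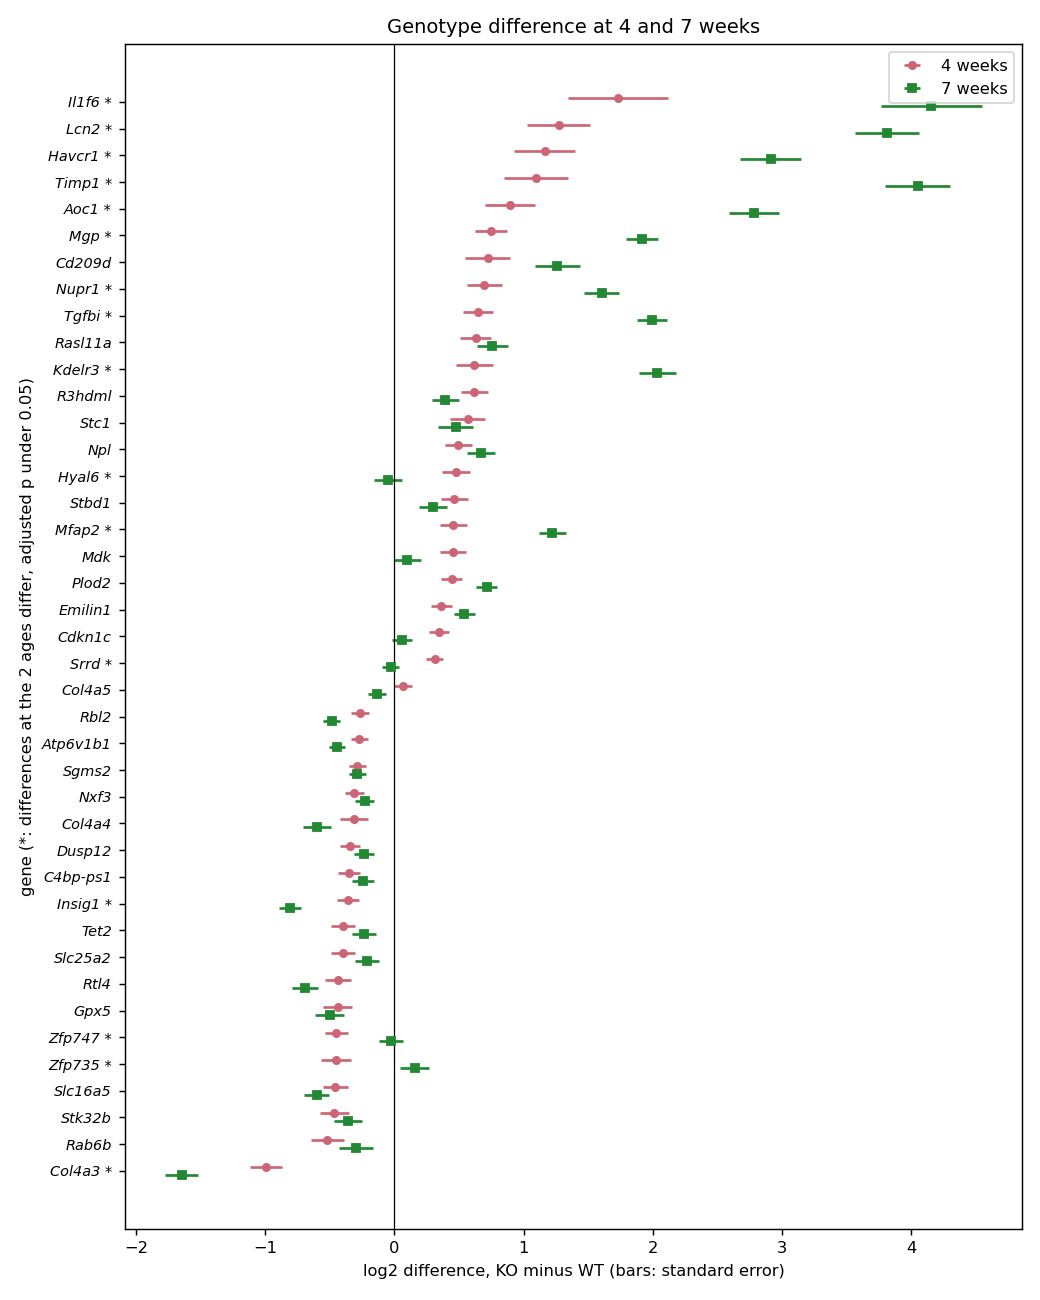
Log2 differences, knockout minus wild type, with standard errors are plotted for the genes nearest to or past the threshold and the 3 chains of the trimer, at 4 weeks (circles) and 7 weeks (squares); an asterisk marks genes whose difference changed between ages (adjusted p under 0.05). Il1f6, Timp1, Lcn2 and Havcr1 lie farthest right at 7 weeks, while Srrd, Hyal6 and Zfp747 lie near 0 there.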

How the data were processed

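Kidney RNA of 32 male 129 mice was hybridised to 1 array each, and the log2 signals, 1 per gene feature, were made by the authors with RMA in Expression Console, per the labels. RMA sets a common distribution on all arrays, so a shift of most genes one way would not be seen. Features naming exactly 1 gene were kept, with the highest-mean feature per gene. Symbols were matched to RefSeq (GRCm38.p6) for 21994 of 22180 genes, whose coordinates are of that build.

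Group means were fitted to all 32 arrays with limma 3.58.1 (R 4.3.3) with moderated variances (28 residual and 4.84 prior degrees of freedom), with Benjamini-Hochberg adjustment across the 22180 genes and a threshold of 0.05. Exact permutation tests were two-sided. Differences are knockout minus wild type ± SE from that fit, with n = 8 mice per group. The fit was tested on simulated data and recovered 75 of 100 genes changed by 0.5 and 98 of 100 changed by 1, with 12 false calls. The simulated noise was independent between genes, so these rates need not hold for the measured mice. The comparison, gene lists and named genes were chosen with earlier results of these data known. Named genes were the trimer chains, all called genes, the 15 nearest the threshold in each direction leaving out predicted genes and small RNAs, genes without overlap, and per list the members of smallest p or of a stated role. Alternatives left out each mouse, used the replicate number as a block, the 4-week arrays alone, array weights, centring, a low-value filter (5 or more on 8 arrays), the variance trend, the most variable feature or a rank-sum test. The number of arrays limits precision. Raw array scans were not used here.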

Additional observations from a re-analysis of the deposited data

Results flagged for a closer look

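Mice that stood apart from the other 7 of their group were looked for in the genes and list means named above (a gap to the nearest mouse, as a share of the group's range, above Dixon's 95% critical value). Of 410 groups of values, 47 met this, where chance alone gives about 1 in 20; 14 concerned wild type mouse 5 and 12 knockout mouse 4. Values are log2 signals, with the nearest other mouse's value after the word against.

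Wild type mouse 5 was highest for Mgp (11.02 against 10.42), Lcn2 (8.33 against 6.91), Havcr1 (10.47 against 8.89), Il1f6 (8.63 against 5.48) and Aoc1 (9.08 against 8.46). It was likewise highest for Ccl9 (8.01 against 6.86), Ccl17 (7.58 against 5.73), Fgg (7.31 against 5.91), Anxa3 (8.66 against 8.14) and Serpina3n (7.12 against 6.16). It was likewise highest for Mmp12 (7.40 against 6.61), Cd14 (7.03 against 6.09), Klf6 (10.42 against 9.98) and the mean of the tubular injury list (8.10 against 7.80). Knockout mouse 4 was highest for Col1a2 (8.27 against 7.87), Emilin1 (7.41 against 7.06), Vim (11.01 against 10.26), Sox9 (7.16 against 6.42) and Tnc (7.77 against 6.69). It was likewise highest for Adam8 (6.12 against 5.55), Cx3cl1 (9.002 against 8.656) and the mean of the mesangial and pericyte list (7.79 against 7.54). Knockout mouse 4 was lowest for Aqp4 (6.71 against 7.78), Slc12a1 (10.32 against 11.46), Tmem207 (7.36 against 9.88) and the mean of the thick ascending limb list (8.73 against 9.51). Wild type mouse 8 was highest for Fdps (8.42 against 7.86), the mean of the T cell list (6.09 against 5.39) and the mean of the interferon response list (7.60 against 6.37). Wild type mouse 8 was lowest for Sirt1 (8.91 against 9.03). Knockout mouse 1 was highest for the mean of the interferon response list (6.64 against 6.44) and the mean of the adrenal cortex list (4.76 against 4.67). Knockout mouse 1 was lowest for Rbl2 (8.83 against 9.08). Knockout mouse 3 was highest for Cfi (6.38 against 6.00) and the mean of the adipocyte list (6.62 against 6.19). Knockout mouse 5 was highest for Srrd (7.93 against 7.77). Knockout mouse 6 was lowest for Adam12 (6.49 against 6.80). Wild type mouse 1 was highest for the mean of the fatty acid oxidation list (10.11 against 9.71). Wild type mouse 2 was highest for Slc8a1 (9.95 against 9.56). Wild type mouse 2 was lowest for Ccn2 (8.22 against 8.60) and Adam8 (4.66 against 5.09). Wild type mouse 4 was lowest for Col15a1 (5.41 against 5.95) and Mmp8 (3.98 against 4.50). Wild type mouse 6 was highest for Birc5 (5.95 against 5.10). Wild type mouse 6 was lowest for Col3a1 (7.42 against 7.61) and the mean of the adrenal cortex list (4.41 against 4.68). Wild type mouse 7 was highest for the mean of the urothelium list (6.50 against 5.86).

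The genotype difference changed between 4 and 7 weeks, by the interaction term in limma, in 16 of 41 genes examined for it. Over all genes 3779 (17%) passed. Most of the genes examined were picked on their 4-week values, which also enter this test. The 7-week difference minus the 4-week difference was above 0 for Lcn2 (2.54, adjusted p = 4.25e-06), Mgp (1.17, adjusted p = 1.78e-05), Nupr1 (0.91, adjusted p = 0.000965), Tgfbi (1.35, adjusted p = 9.64e-07), Havcr1 (1.75, adjusted p = 0.00036) and Aoc1 (1.89, adjusted p = 9.28e-06). It was also above 0 for Il1f6 (2.43, adjusted p = 0.00194), Timp1 (2.95, adjusted p = 7.13e-07), Kdelr3 (1.42, adjusted p = 6.84e-06), Mfap2 (0.77, adjusted p = 0.00039), Zfp747 (0.42, adjusted p = 0.0179) and Zfp735 (0.61, adjusted p = 0.00772). It was below 0 for Col4a3 (-0.65, adjusted p = 0.00907), Srrd (-0.34, adjusted p = 0.0108), Hyal6 (-0.52, adjusted p = 0.0153) and Insig1 (-0.45, adjusted p = 0.00749). Zfp747 and Zfp735, lower at 4 weeks, had differences of -0.03 and 0.16 at 7 weeks.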

How the results depend on the processing

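Col4a3 was called in every limma fit tried, with differences from -1.07 to -0.93 when 1 mouse was left out. With 1 mouse left out, the number of called genes ran from 3 to 24 and the number of called list genes from 2 to 12. In every such fit 6 of the 9 called genes changed between ages. The number of genes without overlap ran from 12 to 41, against 11 with all mice. Leaving out mice can only keep or raise this last number, so it could not have fallen. Fits of the 4-week arrays alone called 1 gene, in the lists also 1, with 14 residual degrees of freedom in place of 28. Array weights gave 5 calls and the exact rank-sum test 0. Among the settings chosen after seeing the data, leaving out knockout mice 4 and 5 gave 1 called gene, 1 called list gene and 31 genes without overlap. Leaving out wild type mice 5 and 8, picked for their high injury and immune values, gave 72, 24 and 121. A small nucleolar RNA covariate gave 13 calls, the 9 among them. The cause of these changes was not tested. Centring the arrays, the variance trend and the more variable feature each gave 9 calls, and dropping low-value genes 10, with Havcr1 added.

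The labels do not say what the replicate numbers mark. Correlations of same-numbered knockout and wild type deviations ran from -0.27 to 0.23, and 2 of 8 were above 0.1. Of the wild type mice, 1 correlated best with its own number. With 8 pairs and some mice far from their group, these values cannot exclude pairing. A fit with the number as a block called 7 genes, losing Lcn2 and Zfp747. No named gene changed direction while called. Of 43 list medians, 30 kept their sign in every setting, and the other 13, among them podocyte, proximal tubule, interferon, T cell and lysine deacetylase genes, lay near 0. With 8 mice per group, simulated differences of 0.5 on the log2 scale were recovered in 75 of 100 genes. The simulated noise was independent between genes, unlike the shared deviations of mice seen here, so this rate need not hold for these data. Among the higher genes near the threshold, differences as large as 1.73 did not pass, so larger differences than 0.5 could also be missed.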
